A study of Mus musculus with 6 samples.

Results

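The miRNAs miR-99a, miR-99b, miR-100, miR-125a and miR-125b come from hairpins that sit beside let-7 hairpins in 3 places of the mouse genome. Their mature products were followed in small RNA sequencing of EVs (extracellular vesicles), small membrane packets released by cells. The members were chosen by name from the 5p and 3p products of these hairpins. The names do not cover every product that the study listed, since miR-125b-1-3p is not among them. Of the 8 names looked for, 8 were among the 474 miRNAs listed in every library: mmu-miR-99a-5p, mmu-miR-99b-5p, mmu-miR-99b-3p, mmu-miR-100-5p, mmu-miR-100-3p, mmu-miR-125a-5p, mmu-miR-125a-3p and mmu-miR-125b-5p, written below without the species prefix. let-7e-5p, let-7c-5p and let-7a-5p, the let-7 products of the same places, served as a yardstick.

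The EVs came from primary hepatocytes of ApoE knockout mice, which carry high plasma cholesterol. For the 3 HFHC-EV libraries the knockout mice were fed a diet named HFHC, and for the 3 Chow-EV libraries they were fed chow. Both groups lack ApoE, and no wild-type animals were included. The labels number the libraries 1 to 3 as biological replicates within each diet and do not say how long the diets lasted or how many mice stood behind a library. The study asked which miRNAs of hepatocyte EVs differ with the diet.

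miR-99a, miR-99b and miR-100 form one family, whose members repress the growth kinase gene Mtor among other targets. miR-125a and miR-125b are the mammalian relatives of lin-4 of Caenorhabditis elegans, which times larval development together with let-7. A miRNA finds its targets mainly through its seed, the bases 2 to 8 from its 5′ end, so that products with the same seed can act on overlapping targets. Of a hairpin's 5p and 3p arms, usually the more abundant is loaded into the silencing complex and the other is degraded.

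The mature sequences below show which members share a seed, here in capitals. They run 5′ to 3′ and are taken from RefSeq on GRCm38.p6, whose table held all 8 members.
miR-99b-5p: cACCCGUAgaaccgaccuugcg
miR-99a-5p: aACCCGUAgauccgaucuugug
miR-100-5p: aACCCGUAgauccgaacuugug
miR-125a-5p: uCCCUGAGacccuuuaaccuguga
miR-125b-5p: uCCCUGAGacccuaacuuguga
miR-99b-3p: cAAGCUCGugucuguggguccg
miR-100-3p: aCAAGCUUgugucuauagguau
miR-125a-3p: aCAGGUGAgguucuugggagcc
let-7e-5p: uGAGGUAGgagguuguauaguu

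miR-99a-5p, miR-99b-5p and miR-100-5p share the seed ACCCGUA, which no other of the 1679 mature mouse miRNAs in that table carries. miR-99a-5p and miR-100-5p differ at a single base, U16A, counted from 1 at the 5′ end with the base of miR-99a-5p first. miR-99b-5p stands further off, with A1C, U11A, U16C and U21C against miR-99a-5p. miR-125a-5p and miR-125b-5p share the seed CCCUGAG and their first 13 bases. let-7e-5p differs from the far more abundant let-7a-5p by G9U only. How the authors assigned reads that match several of these sequences is not given in the sources used here, so a part of the reads of miR-99a-5p and miR-100-5p, or of let-7e-5p, could belong to the near-identical partner.

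The 3 places differ in how tightly the hairpins are packed. On chromosome 17, Mir99b (17830188 to 17830257), Mirlet7e (17830352 to 17830444) and Mir125a (17830812 to 17830879) lie within 692 bases on the plus strand of GRCm38. Mir99b and Mirlet7e fall in an intron of Spaca6, a sperm protein gene, and Mir125a overlaps an annotated Spaca6 exon (GENCODE M21). On chromosome 16, Mir99a (77598936 to 77599000), Mirlet7c-1 and Mir125b-2 (77646273 to 77646343) spread over 47408 bases in introns of the noncoding host gene Mir99ahg. On chromosome 9, Mir100 (41531425 to 41531504), Mirlet7a-2 and Mir125b-1 (41581926 to 41582002) spread over 50578 bases in introns of the noncoding gene 3110039I08Rik. miR-125b-5p has the same sequence from Mir125b-1 and Mir125b-2, and let-7a-5p and let-7c-5p also come from hairpins elsewhere.

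Levels are given in RPM, the authors' reads scaled to a common library size. The listed miRNAs took 0.138% to 0.344% of each library's denominator and came to 27673 to 65775 reads per library. Their sum was 2683 ± 665 RPM in HFHC-EV and 1662.5 ± 371 RPM in Chow-EV (mean ± SD, n = 3 each), so a level in RPM also carries this difference in the total. Libraries with the same number resembled each other across the diets, and the numbers were therefore used as pairs beside the unpaired test. The summed hepatocyte markers fixed for this work, of which 4 of 5 were listed, lay at 13.5 to 27.3 RPM in HFHC-EV and 5.33 to 17.0 RPM in Chow-EV. miR-122-5p, the miRNA most typical of hepatocytes, stood at 0.938 to 14.0 RPM in HFHC-EV and 0.745 to 10.5 RPM in Chow-EV. Blood and immune cell markers summed to 12.9 to 148 RPM in HFHC-EV and 6.71 to 115 RPM in Chow-EV. In both diets the library numbered 1 was highest in these markers, in the hepatocyte markers and in miR-122-5p. A larger amount per vesicle and more vesicles from some cells cannot be told apart in such bulk libraries.

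The family was a sizeable minority of the EV miRNA. Its 8 members made up 6.68%, 8.46% and 7.76% of the listed miRNA signal in HFHC-EV libraries 1 to 3, against 5.57%, 7.67% and 6.56% in Chow-EV libraries 1 to 3. The share was higher in HFHC-EV within each number, although the ranges of the diets overlapped. The mean was 7.64 ± 0.897% in HFHC-EV and 6.60 ± 1.05% in Chow-EV (SD, n = 3 each). They differed by 1.04 percentage points, with p = 0.2 in a 2-sided exact permutation test. Over the 3 pairs of numbers the 2-sided exact sign-flip p was 0.25, the smallest that 3 pairs can give. The difference was 0.520 points without Chow-EV 1, 0.622 without HFHC-EV 2 and 1.57 without Chow-EV 2.

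miR-99b-5p and miR-125a-5p carried most of this signal in both diets. By mean level among all listed miRNAs, miR-99b-5p had rank 5 in HFHC-EV and rank 9 in Chow-EV, and miR-125a-5p had rank 12 in HFHC-EV and rank 13 in Chow-EV. In HFHC-EV the levels ran from miR-99b-5p (110 ± 31.8 RPM) over miR-125a-5p (67.2 ± 4.43) to miR-100-5p (10.6 ± 10.4), miR-99a-5p (6.87 ± 9.94), miR-125b-5p (6.45 ± 8.11) and miR-99b-3p (3.69 ± 0.766). In Chow-EV the same first places were held by miR-99b-5p (49.8 ± 16.0 RPM) and miR-125a-5p (40.2 ± 3.69), followed by miR-100-5p (7.32 ± 7.99), miR-125b-5p (6.36 ± 7.84), miR-99a-5p (3.35 ± 4.29) and miR-99b-3p (1.59 ± 0.998). Beyond the first places the neighbours did not differ by more than their spread, and in Chow-EV neither did miR-99b-5p and miR-125a-5p. miR-125a-3p and miR-100-3p stayed below 1 RPM in every library.

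**Figure D1:**
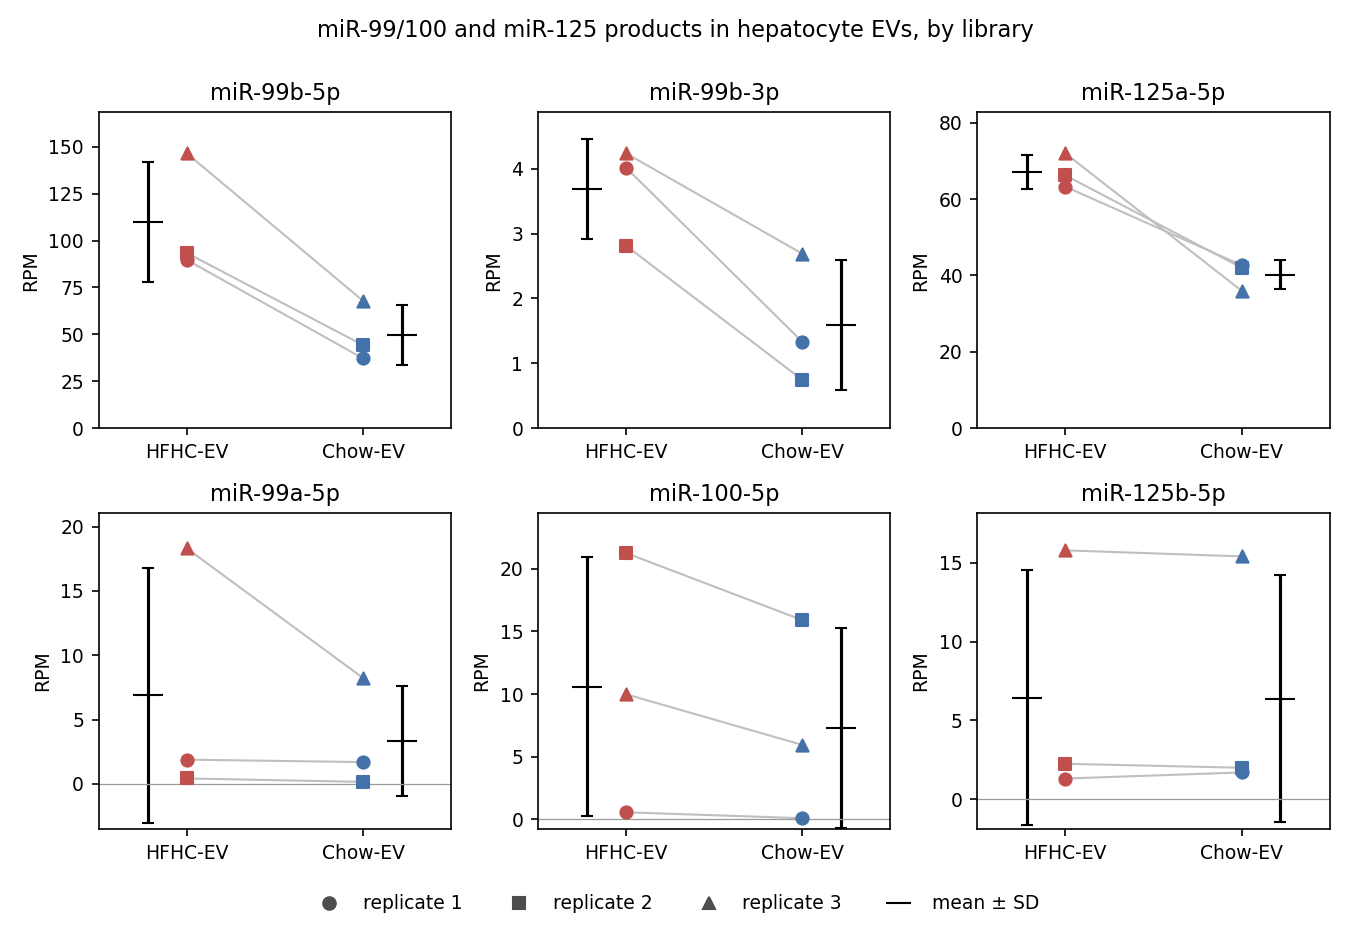
RPM of the 6 more abundant members, 1 point per library, HFHC-EV left of Chow-EV, with grey lines between libraries of the same number and black bars for the mean ± SD (n = 3), which can reach below 0 where the spread exceeds the mean. miR-99b-5p, miR-99b-3p and miR-125a-5p do not overlap between the diets, whereas miR-99a-5p, miR-100-5p and miR-125b-5p spread by number within each diet. Of the 104 tested miRNAs 42.3% were higher in HFHC-EV without overlap.

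Tests across all miRNAs used limma-trend on log2(RPM + 1) over the 104 miRNAs whose mean reached 1 RPM, 6 of them members, with Benjamini-Hochberg adjustment. Fold changes on this scale understate those of low miRNAs. Of the 6 tested members 2 were called higher in HFHC-EV at an adjusted p under 0.05, miR-99b-5p and miR-125a-5p, and 0 were called lower (3 had an unadjusted p under 0.05). Over all tested miRNAs 24.0% were called higher and 4.81% lower. The median log2 fold change was 0.63 over the 6 members and 0.51 over the 104. After TMM scaling, 0 of the 6 were called higher, with 3.85% of the 104, and in edgeR 0 of the 6, with 0.962% of the 104.

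miR-99b-5p, the main 5p product of its hairpin, stood at 89.7, 93.4 and 146 RPM in HFHC-EV libraries 1 to 3, against 37.2, 44.3 and 67.8 RPM in Chow-EV libraries 1 to 3. Every HFHC-EV library lay above every Chow-EV library, as did 42.3% of the tested miRNAs. The ratio of the means was 2.21, and within the numbers the ratio was 2.41, 2.11 and 2.16. On the log2 scale the difference was 1.14 ± 0.30 (SE), with an adjusted p of 0.0437 in limma. The call was lost without HFHC-EV 1, 2 or 3 or Chow-EV 1 or 2, with limma adjusted p from 0.0812 to 0.136, and held without Chow-EV 3 (0.0220). It was lost as well without both libraries numbered 1 (0.189) or both numbered 2 (0.244).

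Relative to the other miRNAs the difference of miR-99b-5p was smaller. Its share of the listed signal was 3.73%, 4.24% and 4.26% in HFHC-EV, against 2.43%, 3.22% and 3.26% in Chow-EV, without overlap. The 2-sided exact permutation test gave p = 0.1, which is the lowest value that 3 libraries against 3 allow. How many of the tested miRNAs had shares without overlap was not counted. After TMM scaling, which sets the libraries to a common level over the miRNAs and brings the median log2 fold change from 0.51 to −0.0053, the log2 fold change of miR-99b-5p was 0.40 (limma adjusted p = 0.181). edgeR's quasi-likelihood test on the reads recovered from the RPM steps gave 0.49 (adjusted p = 0.137). With the replicate number as a block, miR-99b-5p was called higher in edgeR (log2 fold change 0.50, adjusted p = 0.0047) and in limma-trend with TMM scaling (0.40, adjusted p = 7.5e-08), where 24.0% and 27.9% of the 104 were called higher. The blocked limma fits over the 104 miRNAs draw on 208 degrees of freedom pooled over all of them. Here and below, a small p from them therefore does not rest on the 3 pairs of a single miRNA alone.

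miR-99b-3p, the less abundant arm of the same hairpin, stood at 4.02, 2.81 and 4.24 RPM in HFHC-EV, against 1.33, 0.745 and 2.69 RPM in Chow-EV. The HFHC-EV libraries again lay above all Chow-EV libraries, as for 42.3% of the tested miRNAs. The lowest HFHC-EV and the highest Chow-EV value of miR-99b-3p were close. On the log2 scale it differed by 0.91 ± 0.32 (SE), with an adjusted p of 0.0922 in limma. With the replicate block the adjusted p of limma was 4.2e-08 in RPM, where 66.3% of the tested miRNAs were called higher. After TMM scaling with the block it was 0.0361 in limma, where 27.9% were called higher. In edgeR with the block it was 0.0880. Without Chow-EV 3 the adjusted p of the unpaired limma fit was 0.0250, where 30.8% were called higher.

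The balance of the arms of Mir99b showed no difference between the diets beyond the spread of the libraries. The 3p arm made up 4.28%, 2.93% and 2.81% of the reads of both arms in HFHC-EV (77, 54 and 81 reads of the 3p arm), against 3.46%, 1.66% and 3.82% in Chow-EV (26, 15 and 52 reads). The means differed by 0.37 percentage points, with 3.34 ± 0.820% in HFHC-EV and 2.98 ± 1.16% in Chow-EV, and the exact permutation p (2-sided) was 0.8. Across the 6 libraries the exact binomial 95% intervals reached from 0.930% to 5.33%. Intervals of this kind cover counting error only, since reads of a PCR library are not independent molecules.

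In RPM, miR-125a-5p varied least within a diet among the tested members. It stood at 63.3, 66.2 and 72.0 RPM in HFHC-EV libraries 1 to 3, against 42.7, 42.0 and 36.0 RPM in Chow-EV libraries 1 to 3. Every HFHC-EV library lay above every Chow-EV library, as for 42.3% of the tested miRNAs. The values of miR-125a-5p within each diet lay close together. Its coefficient of variation was 6.60% in HFHC-EV and 9.17% in Chow-EV, where the medians over all tested miRNAs were 31.4% and 32.4%. The let-7 products also lay close together, with 7.70% in HFHC-EV and 8.78% in Chow-EV for let-7a-5p. For let-7c-5p the values were 9.37% and 12.1%, and for let-7e-5p 10.6% and 13.1%. As a share of the listed signal the order of the members turned, with 17.9% in HFHC-EV and 27.8% in Chow-EV for miR-125a-5p, and 7.37% in HFHC-EV and 15.8% in Chow-EV for miR-99b-5p. The difference of miR-125a-5p between the diets was 0.73 ± 0.11 (SE) on the log2 scale, with an adjusted p of 0.0063 in limma. The call held when any single library was left out (limma adjusted p from 0.0148 to 0.0348), and was lost without both libraries numbered 1 (0.0805) or both numbered 2 (0.151).

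The difference of miR-125a-5p was of the size of the difference in total miRNA signal. Its share of that signal was 2.63%, 3.01% and 2.09% in HFHC-EV and 2.79%, 3.06% and 1.73% in Chow-EV, which overlapped, and the exact permutation p was 1 (2-sided). After TMM scaling its log2 fold change was −0.0024 (limma adjusted p = 0.999), and in edgeR it was 0.057 (adjusted p = 0.963). With the block the edgeR value was 0.090 (adjusted p = 0.533). let-7c-5p had a log2 fold change of 0.73 in RPM (limma adjusted p = 0.0091) and −0.0081 after TMM scaling (0.995), and let-7a-5p had 0.67 in RPM (0.0063) and −0.067 after TMM scaling (0.884).

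**Figure D2:**
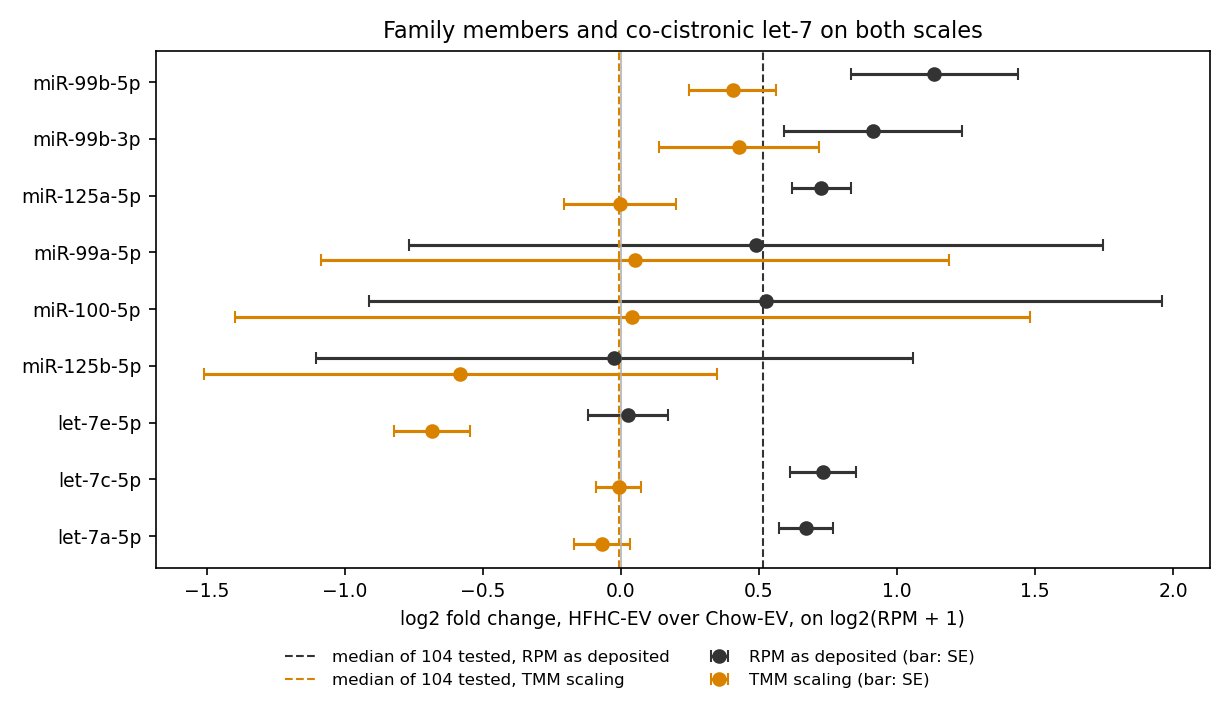
Log2 fold change of HFHC-EV over Chow-EV with its standard error, for 6 members and 3 let-7 products, in RPM as deposited (black) and after TMM scaling (orange), with dashed lines at the medians of the 104 tested miRNAs, 0.51 in RPM and −0.0053 after TMM scaling. miR-99b-5p lies right of both medians, miR-125a-5p close to the median after scaling, and let-7e-5p left of both.

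The hairpins of chromosome 17 offered a comparison that does not depend on the scaling, since the products of neighbouring hairpins were measured in the same library. let-7e-5p, which lies between Mir99b and Mir125a, had overlapping levels in the diets. It stood at 17.9, 21.1 and 22.1 RPM in HFHC-EV, against 17.6, 19.7 and 22.8 RPM in Chow-EV, with full overlap (0.025 ± 0.15 SE on the log2 scale, limma adjusted p = 0.921). After TMM scaling it was called lower in HFHC-EV (log2 fold change −0.68, limma adjusted p = 0.0407), as were 6.73% of the tested miRNAs. When the TMM factors were computed over the 104 tested miRNAs only, an alternative chosen after seeing the data, the value was −0.59 (limma adjusted p = 0.136), with 5.77% of the tested miRNAs called lower. edgeR gave −0.62 (adjusted p = 0.162), and limma with total miRNA scaling −0.63 (adjusted p = 0.1335). DESeq2 called let-7e-5p lower (−0.66, adjusted p = 0.0222), as 12 of the 104. With the block it was called lower in edgeR (−0.62, adjusted p = 0.0051) and in limma-trend with TMM scaling (−0.68, adjusted p = 4.1e-06). In these blocked fits 19.2% and 25.0% of the 104 were called lower.

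Per read of let-7e-5p, HFHC-EV held more of both outer products. There were 5.0, 4.42 and 6.63 reads of miR-99b-5p for each read of let-7e-5p in HFHC-EV libraries 1 to 3, against 2.11, 2.25 and 2.97 in Chow-EV libraries 1 to 3. For miR-125a-5p the ratios were 3.53, 3.14 and 3.26 in HFHC-EV, against 2.42, 2.14 and 1.58 in Chow-EV. Neither ratio overlapped between the diets. Among all 103 other tested miRNAs the ratio to let-7e-5p was higher in HFHC-EV without overlap for 36.9% and lower without overlap for 6.8%. The log2 ratio of miR-99b-5p to let-7e-5p differed by 1.13 and that of miR-125a-5p to let-7e-5p by 0.71 (2-sided exact permutation p = 0.1 for each, the smallest possible, and 0.15 adjusted over 3 ratios).

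Between the outer products the diets overlapped. The ratio of miR-99b-5p to miR-125a-5p was 1.42, 1.41 and 2.03 in HFHC-EV, against 0.871, 1.05 and 1.88 in Chow-EV. It was higher in HFHC-EV within each number, and in both diets the libraries numbered 3 stood highest. The log2 ratio differed by 0.41 (exact permutation p = 0.3, adjusted over 3 ratios 0.3), and by 0.18 without Chow-EV 1, 0.24 without HFHC-EV 3 and 0.74 without Chow-EV 3.

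**Figure D3:**
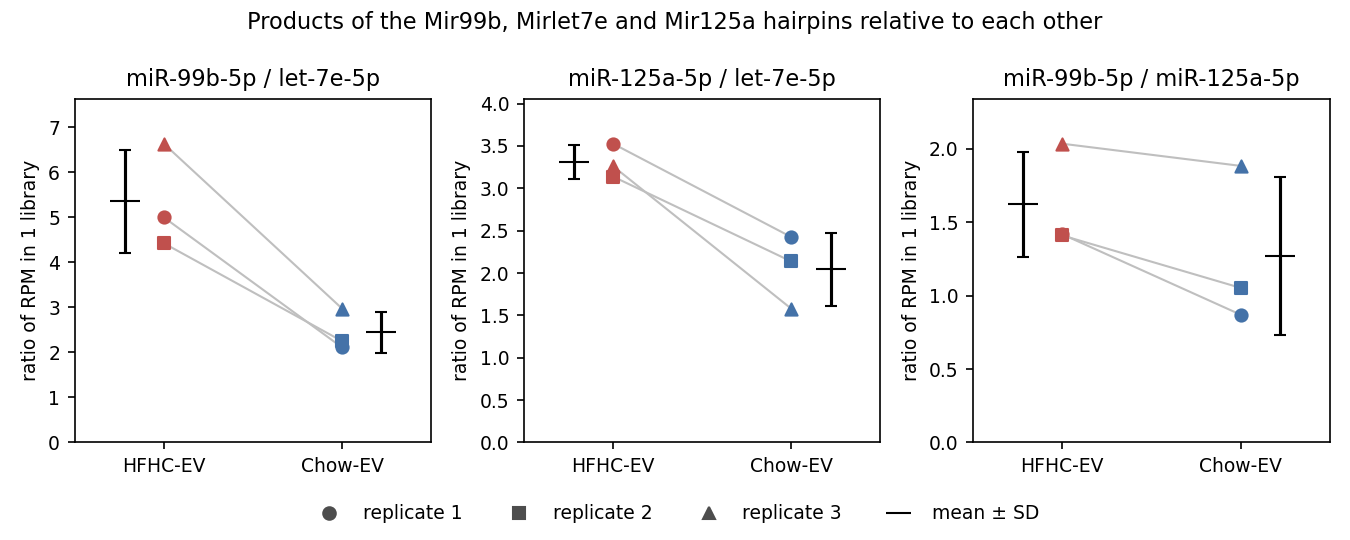
Ratio of RPM between products of the Mir99b, Mirlet7e and Mir125a hairpins within a library, HFHC-EV left of Chow-EV, with grey lines between libraries of the same number and the mean ± SD (n = 3). Both ratios to let-7e-5p separate the diets, and the ratio of miR-99b-5p to miR-125a-5p overlaps.

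miR-125a-3p was the only member called lower in HFHC-EV without the block. It comes from the other arm of the hairpin that gives miR-125a-5p, shown here with both mature products in capitals (chr17:17830812-17830879, plus strand, GRCm38.p6).
Mir125a: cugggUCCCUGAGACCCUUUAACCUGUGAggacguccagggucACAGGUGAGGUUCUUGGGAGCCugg

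miR-125a-3p had 0, 0 and 2 reads in HFHC-EV libraries 1 to 3, against 12, 7 and 8 reads in Chow-EV libraries 1 to 3. In RPM this was 0, 0 and 0.105 in HFHC-EV, against 0.614, 0.348 and 0.414 in Chow-EV, and the diets did not overlap. Of the 104 tested miRNAs 6.73% were lower in HFHC-EV without overlap. That share was not counted over the miRNAs below 1 RPM. Over the groups the rate of miR-125a-3p in HFHC-EV was 0.0760 of that in Chow-EV (exact 95% interval 0.00876 to 0.302). This interval pools the reads of each diet and covers counting error only, not the spread between libraries. Being below 1 RPM, miR-125a-3p was tested in the same limma fit over all 422 miRNAs with a read. There it differed by −0.49 ± 0.11 (SE) on the log2 scale (limma adjusted p = 0.0318). In that fit 5.21% of the miRNAs were called lower and 14.2% higher. The call was lost without HFHC-EV 1, 2 or 3 or Chow-EV 3 (limma adjusted p from 0.0593 to 0.0880), with a pseudocount of 10 RPM (0.0545), with total miRNA scaling (0.0521) and in edgeR (0.0861), which called 0.474% of the 422 lower. edgeR with the block gave an adjusted p of 0.0019, where 11.8% were called lower and 13.0% higher. DESeq2 gave an adjusted p of 0.0068, where of the 422 miRNAs 32 were called lower and 43 higher. Without both libraries of a number the limma adjusted p was 0.118 to 0.178.

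Since miR-125a-5p was higher in RPM while miR-125a-3p was lower, the share of the 3p arm differed too. It was 0%, 0% and 0.145% of the reads of both arms in HFHC-EV, against 1.42%, 0.821% and 1.14% in Chow-EV. The counts of 0 among 1213 reads in HFHC-EV 1 and 1271 reads in HFHC-EV 2 have exact binomial 95% upper limits of 0.304% and 0.290%, and the simpler limit of 3 reads over the total gives 0.247% and 0.236%. Taking the libraries of a diet together, the share was 0.0518% in HFHC-EV (exact binomial 95% interval 0.00627 to 0.187) and 1.12% in Chow-EV (0.742 to 1.63). These pooled intervals too leave out the spread between libraries. No HFHC-EV library reached a Chow-EV library (p = 0.1, exact permutation, for a share picked with its values known). The less abundant arm of Mir99b, as given above, moved the other way in RPM, and the difference between the hairpins was not tested.

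**Figure D4:**
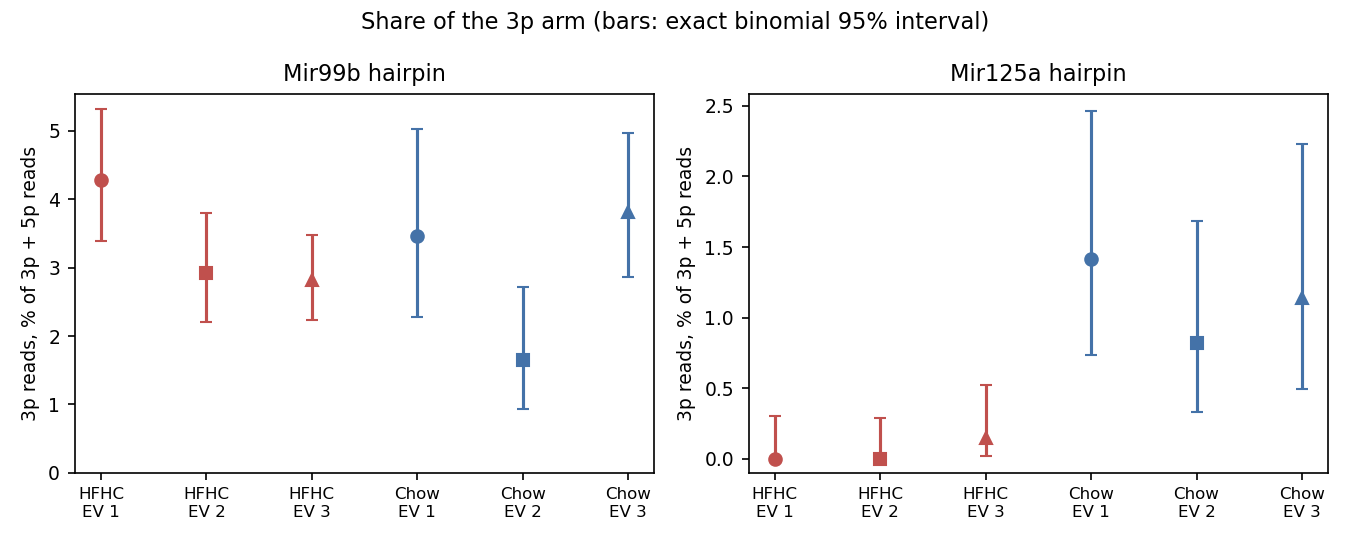
Share of 3p reads among the reads of both arms of Mir99b (left) and Mir125a (right), 1 point per library with its exact binomial 95% interval, HFHC-EV in red and Chow-EV in blue. For Mir99b the points of the diets overlap, and for Mir125a all HFHC-EV points, at 0% to 0.145%, lie below the Chow-EV points, at 0.821% to 1.42%.

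The family members from the chromosome 16 and chromosome 9 hairpins, miR-99a-5p, miR-100-5p and miR-125b-5p, varied with the library number far more than with the diet. let-7c-5p and let-7a-5p, whose hairpins include the let-7 neighbours there, did not share this spread, with the highest library over the lowest at 1.16 to 1.27 within a diet. miR-99a-5p, from Mir99a, stood at 1.88, 0.417 and 18.3 RPM in HFHC-EV libraries 1 to 3, against 1.69, 0.149 and 8.22 RPM in Chow-EV libraries 1 to 3. In both diets the library numbered 3 was highest and that numbered 2 lowest. The highest library exceeded the lowest by a factor of 43.9 in HFHC-EV and 55.2 in Chow-EV. Its log2 fold change between the diets was 0.49 with a standard error of 1.26 (limma adjusted p = 0.872).

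miR-100-5p, from Mir100, had another order of libraries although it differs from miR-99a-5p by a single base. It stood at 0.574, 21.3 and 9.99 RPM in HFHC-EV, against 0.102, 15.9 and 5.95 RPM in Chow-EV. The library numbered 2 was highest and that numbered 1 lowest in both diets, with 11 reads in HFHC-EV 1 and 2 reads in Chow-EV 1. Its log2 fold change was 0.52 with a standard error of 1.43 (limma adjusted p = 0.882). The ratio of miR-100-5p to miR-99a-5p was 0.306, 51.0 and 0.546 in HFHC-EV, against 0.0604, 107 and 0.723 in Chow-EV. In the libraries numbered 2, 408 and 320 reads of miR-100-5p stood beside only 8 and 3 of miR-99a-5p, so the near-identical products were not counted as copies of each other there.

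miR-125b-5p, which can come from either place, stood at 1.304, 2.24 and 15.8 RPM in HFHC-EV, against 1.69, 1.99 and 15.4 RPM in Chow-EV. The library numbered 3 was highest in both diets, as for miR-99a-5p, and the diets were nearly level. The difference on the log2 scale was −0.024 ± 1.08 (SE), with an adjusted p of 0.983 in limma. It did not follow miR-100-5p, with which it shares the chromosome 9 host: miR-100-5p exceeded it by a factor of 9.49 in HFHC-EV 2 and 8.0 in Chow-EV 2, and in the other libraries stood at 0.0604 to 0.632 of it. miR-125b-1-3p, which only Mir125b-1 on chromosome 9 can give, had 26 reads in HFHC-EV 3 and 24 in Chow-EV 3 and none in the other libraries. miR-100-3p, the rare arm of Mir100, also had reads only there, 3 in HFHC-EV 3 and 1 in Chow-EV 3. The ratio of rates was 3.08 (exact 95% interval 0.247 to 162, for counting error only).

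The pairs of library numbers gave these members a second reading. miR-99a-5p and miR-100-5p were higher in HFHC-EV within all 3 numbers, as were 70.2% of the tested miRNAs, by factors of 1.11, 2.80 and 2.23 for miR-99a-5p and 5.63, 1.34 and 1.68 for miR-100-5p. With the replicate block limma-trend called both higher in RPM (adjusted p = 0.0026 and 8.4e-04), which made 5 of 6 members called higher where 66.3% of all tested miRNAs were and 7.69% were called lower. These limma p rest on the pooled 208 degrees of freedom, not on the spread of the 3 pairs of miR-99a-5p and miR-100-5p alone. The standard error was 0.15 for each with the block, against 1.26 for miR-99a-5p and 1.43 for miR-100-5p without it. After TMM scaling with the block neither was called (limma adjusted p = 0.850 and 0.870). miR-125b-5p was called lower with the block after TMM scaling (log2 fold change −0.58, limma adjusted p = 0.0034) and in edgeR (−0.66, adjusted p = 0.0158), where 25.0% and 19.2% of the 104 were called lower. In the blocked edgeR test 1 of 6 members was higher, miR-99b-5p, and 1 lower, miR-125b-5p.

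The seed groups therefore had a different make-up from number to number. miR-99b-5p gave 97.3%, 81.2% and 83.8% of the summed RPM of the seed ACCCGUA in HFHC-EV libraries 1 to 3, against 95.4%, 73.4% and 82.7% in Chow-EV libraries 1 to 3. Summed, this seed had 92.2, 115 and 175 RPM in HFHC-EV and 39.0, 60.3 and 82.0 RPM in Chow-EV, without overlap (p = 0.1, 2-sided exact permutation, the lowest possible). As a share of the listed signal it was 4.71 ± 0.766% in HFHC-EV and 3.62 ± 0.962% in Chow-EV, with overlap and an exact permutation p of 0.3. The seed CCCUGAG of miR-125a-5p and miR-125b-5p had 64.6, 68.5 and 87.8 RPM in HFHC-EV and 44.4, 44.0 and 51.4 RPM in Chow-EV. Its share was 2.78 ± 0.292% in HFHC-EV and 2.86 ± 0.367% in Chow-EV, with an exact permutation p of 0.8. miR-125a-5p gave at least 95.5% of it in the libraries numbered 1 and 2, and 82.0% in HFHC-EV 3 and 70.0% in Chow-EV 3. These sums leave out miR-351-5p, a listed miRNA outside the family with the same seed. With it, miR-125a-5p gave 96.0%, 93.9% and 78.1% in HFHC-EV libraries 1 to 3, against 93.7%, 92.4% and 65.4% in Chow-EV libraries 1 to 3.

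**Figure D5:**
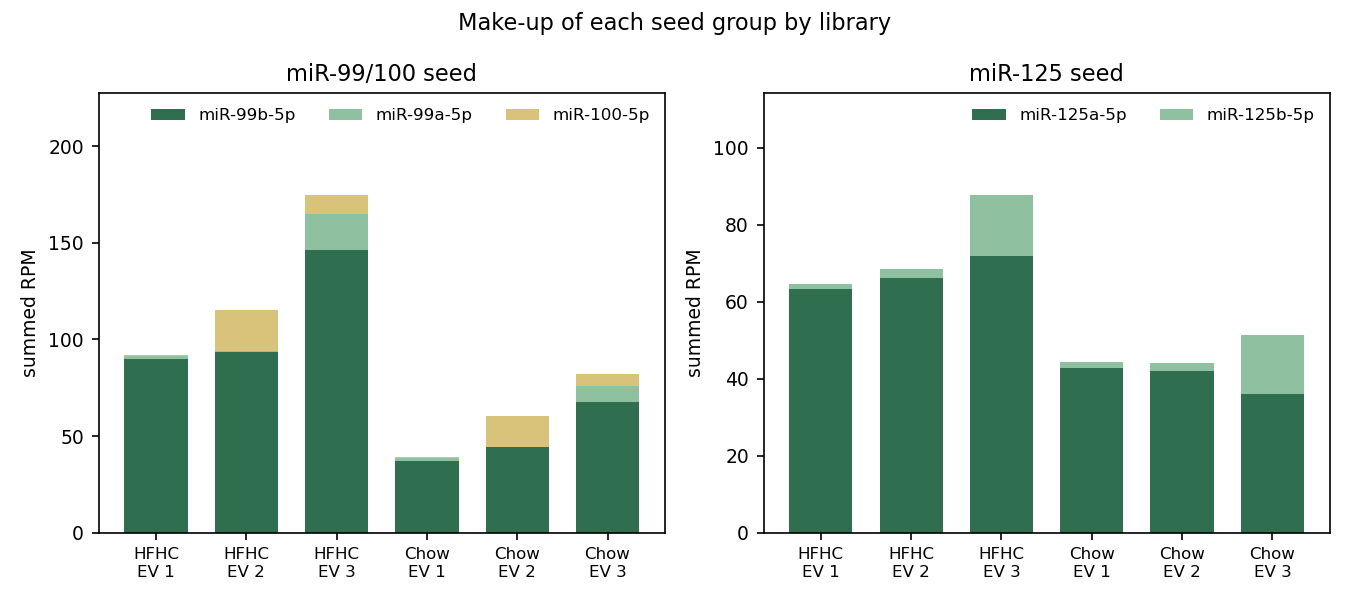
Summed RPM of the 5p members with the seed ACCCGUA (left) and CCCUGAG (right), stacked by member, 1 bar per library, HFHC-EV left of Chow-EV. miR-99b-5p and miR-125a-5p form most of every bar, with miR-100-5p seen mainly in the libraries numbered 2 and miR-99a-5p and miR-125b-5p in those numbered 3.

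Markers of other cell types were set beside these number-bound members. The blood and immune cell markers, 7 of 8 listed, were led by miR-451a and miR-486a-5p. Summed, they were 148, 12.9 and 13.3 RPM in HFHC-EV libraries 1 to 3, against 115, 6.71 and 6.72 RPM in Chow-EV. miR-451a alone gave 136 RPM in HFHC-EV 1 and 102 RPM in Chow-EV 1. In both diets miR-486a-5p, miR-223-3p and miR-150-5p were also highest in the library numbered 1. miR-155-5p was highest in that numbered 3, with 1.31 RPM in HFHC-EV and 2.64 RPM in Chow-EV. The endothelial markers miR-126a-3p and miR-126a-5p, 2 of 2 listed, summed to 2.19 to 9.49 RPM in HFHC-EV and 0.497 to 5.94 RPM in Chow-EV. The mesenchymal markers, 4 of 5 listed and led by miR-143-3p and miR-145a-5p, summed to 1.77 to 3.86 RPM in HFHC-EV and 0.103 to 1.84 RPM in Chow-EV. All 3 lists were highest in the libraries numbered 1, where miR-100-5p was lowest and miR-99a-5p and miR-125b-5p were not at their highest. The summed hepatocyte markers were highest there too. They stood at 27.3, 13.5 and 14.5 RPM in HFHC-EV libraries 1 to 3, against 17.0, 5.6 and 5.3 RPM in Chow-EV. Single markers also differed between the diets. miR-143-3p stood at 3.13, 1.77 and 1.99 RPM in HFHC-EV, against 1.28, 0.348 and 0 RPM in Chow-EV. It was higher in HFHC-EV without overlap, as were 42.3% of the tested miRNAs. miR-126a-3p and miR-451a were higher in HFHC-EV in all 3 numbers, by factors of 1.64, 4.40 and 2.73 for miR-126a-3p and 1.33, 6.04 and 5.53 for miR-451a, with overlap between the diets. miR-150-5p and miR-155-5p were lower in HFHC-EV in all 3 numbers. None of the listed markers of these types was at 0 in all libraries, and their part in the levels of the members was not tested. Of the tested markers, 0 of 5 blood and immune, 0 of 1 endothelial and 0 of 1 mesenchymal miRNAs were called in either direction, and of 2 hepatocyte miRNAs 1, miR-192-5p, was called higher in HFHC-EV.

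The miRNAs most like the leading members over the 6 libraries, by Pearson's r of log2(RPM + 1) among 89 other tested miRNAs with established names, were not the same for miR-99b-5p and miR-125a-5p. For miR-99b-5p they were miR-31-5p (r = 0.995), let-7i-5p (r = 0.994) and let-7b-5p (r = 0.987). For miR-125a-5p they were miR-192-5p (r = 0.98), miR-151-5p (r = 0.976) and miR-183-5p (r = 0.962). These values describe 6 libraries that share their denominators and the difference in total signal, and carry no test.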

How the data were processed

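The authors deposited RPM values, 1 table per library. Per the submitters' processing notes they used Bowtie2 and the build GRCm38.p6. Trimming, the annotation of miRNAs, the tool's version and the treatment of multiple matches are not given in the sources. In each library 100% of the values above 0 lay within 0.1 read of a whole multiple of 1 step. Whole reads were therefore recovered, with denominators of 19114759 to 20122476 reads. Diets were compared by limma-trend (limma 3.58.1, R 4.3.3) on log2(RPM + 1) for the 104 miRNAs whose mean reached 1 RPM, diet as the only term, Benjamini-Hochberg adjustment and a threshold of 0.05. Members below 1 RPM were taken from that fit over 422 miRNAs. edgeR 4.0.16 and DESeq2 1.42.0 on recovered reads, other scalings, filters and pseudocounts, the block and left-out libraries were alternatives. Only limma-trend and edgeR, with and without the block, and DESeq2 were tried on simulated data. In those data the replicate number had no effect. On the recovered reads, with the same filter, edgeR called 1 miRNA higher and 5 lower. Single values were compared with exact permutation tests (scipy 1.17.1). The deviations of same-numbered libraries from their diet means had correlations of 0.945, 0.894 and 0.946 over the 104 miRNAs, and those of other pairs −0.819 to 0.0265. The pairing is thus read from the data, since no label states a shared mouse or day. No libraries agreed within sampling noise. Where nothing says that libraries came from separate animals, p measures only the spread between these libraries. The members and lists were chosen with earlier results of these data known. miRNAs are named by rule: all members, their let-7 neighbours, the fixed lists and the 3 miRNAs most like each leading member.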

Additional observations from a re-analysis of the deposited data

How the results depend on the processing

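The calls in RPM depended on the scaling. The number of members called higher, 2 in the fit as reported, was 0 with TMM scaling, with total miRNA scaling, in edgeR, in DESeq2 and with TMM over tested miRNAs. It was 5 with the replicate block, 1 with the block in edgeR, 1 to 3 without single libraries, and 0 without both libraries numbered 1 or both numbered 2. Over all tested miRNAs, 25 were higher. That number was 4 with TMM scaling, 1 with total miRNA scaling, in edgeR and with TMM over tested miRNAs, 7 in DESeq2, 60 without a filter, 69 with the block, 13 to 32 without single libraries, 0 without both libraries numbered 1 or both numbered 2, and 40 without both numbered 3. The 5 lower became 22 without a filter, 1 at a mean of at least 5 RPM, 12 in DESeq2, 8 with the block, 26 with the block and TMM scaling, 20 with the block in edgeR, 4 without single libraries, 0 without both numbered 1 and 1 without both numbered 2. For miR-99b-5p the direction was the same in 21 alternatives, with adjusted p from 5.3e-45 to 0.244. Among these, the other filters and the limma block in RPM left its log2 fold change at 1.14 and could not turn it. Directions turned for miR-125a-5p with TMM scaling (−0.0024, also with the block), for miR-100-5p in edgeR (−0.19), DESeq2 (−0.21) and edgeR with the block (−0.024), and for miR-125b-5p with a pseudocount of 10 (0.0011) and without both libraries numbered 1 (0.075). Without single libraries the log2 fold change ran from −0.60 to 1.29 for miR-99a-5p, −0.57 to 1.63 for miR-100-5p, −0.90 to 0.82 for miR-125b-5p and −0.024 to 0.081 for miR-100-3p, and the difference in the 3p share of Mir99b from −0.30 to 0.78 percentage points. The causes were not tested. The family share and the 3 ratios kept their direction under all 8 alternatives run for each. Among these, the replicate block changes only the p, so it could not turn a direction. Without single libraries the family share difference ran from 0.520 to 1.57 percentage points, and the log2 ratio of miR-99b-5p to miR-125a-5p from 0.18 to 0.74. With the sign-flip test over pairs, the replicate block of these values, none could fall below 0.25. Depth limits miR-125a-3p, with 2 reads in HFHC-EV and 27 in Chow-EV, and miR-100-3p, with 3 reads in HFHC-EV and 1 in Chow-EV.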

Other observations

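miR-351-5p also carries the seed CCCUGAG and, as no member by name, was looked at after the values were seen. It stood at 1.304, 2.03 and 4.34 RPM in HFHC-EV libraries 1 to 3, against 1.18, 1.49 and 3.62 RPM in Chow-EV libraries 1 to 3, so that the library numbered 3 was highest in both diets, as for miR-125b-5p. The diets differed by 0.19 ± 0.44 (SE) on the log2 scale in RPM, with an adjusted p of 0.846 in limma, and by −0.30 after TMM scaling (0.761).

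The miR-10 miRNAs are sequence relatives of miR-99 and miR-100 and lie in the Hox gene clusters. miR-10a-5p stood at 10.8, 15.2 and 30.6 RPM in HFHC-EV, against 6.60, 8.30 and 14.5 RPM in Chow-EV, with overlap (log2 fold change 0.82, limma adjusted p = 0.249). With the replicate block in RPM it was called higher (limma adjusted p = 2.3e-08, on the pooled degrees of freedom), as were 66.3% of the tested miRNAs. With the block it was not called after TMM scaling (log2 fold change 0.14, limma adjusted p = 0.488) or in edgeR (adjusted p = 0.203). miR-10b-5p had 23 reads in HFHC-EV and 1 in Chow-EV, and no HFHC-EV library overlapped a Chow-EV library. How often this held among miRNAs below 1 RPM was not counted. In the limma fit over 422 miRNAs miR-10b-5p was called higher (log2 fold change 0.46, adjusted p = 0.0295), as were 14.2% of the 422. The adjusted p of miR-10b-5p was 0.0608 in limma with TMM scaling and 0.168 in edgeR. Without HFHC-EV 3 or Chow-EV 1, 2 or 3 it was 0.0746 to 0.107 in limma. miR-10a-3p was listed with 0 reads in all 6 libraries.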
